A study of Mus musculus with 8 samples.

Results

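The genes described here build and remodel membrane phospholipids: Lpcat1, Lpcat3, Lpcat4, Chka, Pcyt1a, Pcyt2, Gpcpd1, Scd1, Scd2 and Acsl4. They are 10 of the 19688 genes in an expression table of mouse blastocysts, found there by their symbols. The set was chosen by function with its FPKM in the 3 groups, and the differences between them, already known, so the levels and differences of its genes are a description and give no independent evidence of a direction. Adjusted p-values come from 1 fit across all tested genes and place each gene among them.

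RNA sequencing covered 8 libraries of blastocysts, hollow mouse embryos whose trophectoderm surrounds the inner cell mass and a cavity filled with fluid. Blastocysts of the melatonin group (3 libraries) were vitrified, that is, cooled to a glass in cryoprotectant, and thawed, with melatonin, an antioxidant hormone, at 1e-10 M in the media of both steps. The vitrified group (3 libraries) went through vitrification without melatonin, and the fresh group (2 libraries) was not vitrified and served as the control. Neither the strain nor the number of embryos per library is given in the sources used here, so the spread between libraries may be partly technical, and p-values measure only that spread.

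Phosphatidylcholine and phosphatidylethanolamine, the most abundant membrane lipids of mammalian cells, are made from choline or ethanolamine by the Kennedy pathway, in which the head group is phosphorylated, activated with CTP and joined to diacylglycerol. The Lands cycle then exchanges acyl chains: a phospholipase removes one, and a lysophospholipid acyltransferase puts another in its place. Desaturases and acyl-CoA synthetases supply the chains, and the balance of saturated and unsaturated chains sets how fluid a membrane is in the cold. The blastocyst needs new membrane as its cells divide and its cavity grows.

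The libraries held an estimated 5813000 to 9991000 fragments in genes, inferred from the deposited FPKM (fragments scaled by transcript length and library total). FPKM above 0 was listed for 14544 to 14889 genes in melatonin libraries, 15749 to 16400 in vitrified libraries and 14260 and 14741 in fresh libraries. Genes of the mitochondrial genome took 4.24% to 4.93% of summed FPKM in melatonin libraries, 4.55% to 5.89% in vitrified libraries, and 11.3% and 6.56% in fresh libraries. Fresh replicate 1 stood apart by its mitochondrial share and had the fewest genes above 0. Summed trophectoderm markers (8 of 8 in the table) were at 10119 to 12620 FPKM in melatonin, 7881 to 12324 in vitrified and 8905 to 9260 in fresh libraries. Epiblast markers (8 of 8) summed to 352 to 401 FPKM in melatonin, 317 to 352 in vitrified and 243 to 318 in fresh libraries, and primitive endoderm markers (8 of 8) to 116 to 168 in melatonin, 154 to 213 in vitrified and 101 to 171 in fresh libraries. Zfp42 was the largest part of the epiblast sum in every library, from 175 of 351 FPKM in vitrified replicate 2 to 216 of 243 FPKM in fresh replicate 1. Single markers differed from this sum, as given beside Lpcat1. Of 8 cumulus cell markers only Has2 was in the table, at 0 in 7 libraries and 0.344 FPKM in vitrified replicate 2, and 2 of 6 fibroblast markers did not pass 0.168 FPKM summed. Of 6 sperm markers 4 were in the table, with sums of 0.311 to 2.79 FPKM. Transcripts of 4 Y-linked genes summed to 20.9 to 36.8 FPKM in 6 libraries and were at 0 in vitrified replicates 2 and 3, where Xist, the RNA that silences an X chromosome, was at 10.5 and 8.14 FPKM against at most 0.963 elsewhere. The part of mitochondrial share, gene number and embryo sex in the differences below was not tested, beyond the values given without the libraries concerned. In whole blastocysts, fewer cells of a type and less RNA per cell cannot be told apart.

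Lpcat1 rose in vitrified blastocysts, to 3.81 times the fresh mean, and was the only gene of the set to pass the test in any comparison, a call that was lost in 11 of 19 other settings; it lay between the other groups in melatonin libraries. The acyltransferases Lpcat3 and Lpcat4 were expressed at higher levels and kept within 1.33 times the fresh mean in both vitrified groups. Gpcpd1, which recovers choline, was higher in every melatonin library than in every vitrified or fresh library, but did not pass. The genes that activate choline and ethanolamine, the desaturases and Acsl4 did not pass in any comparison.

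**Figure D1:**
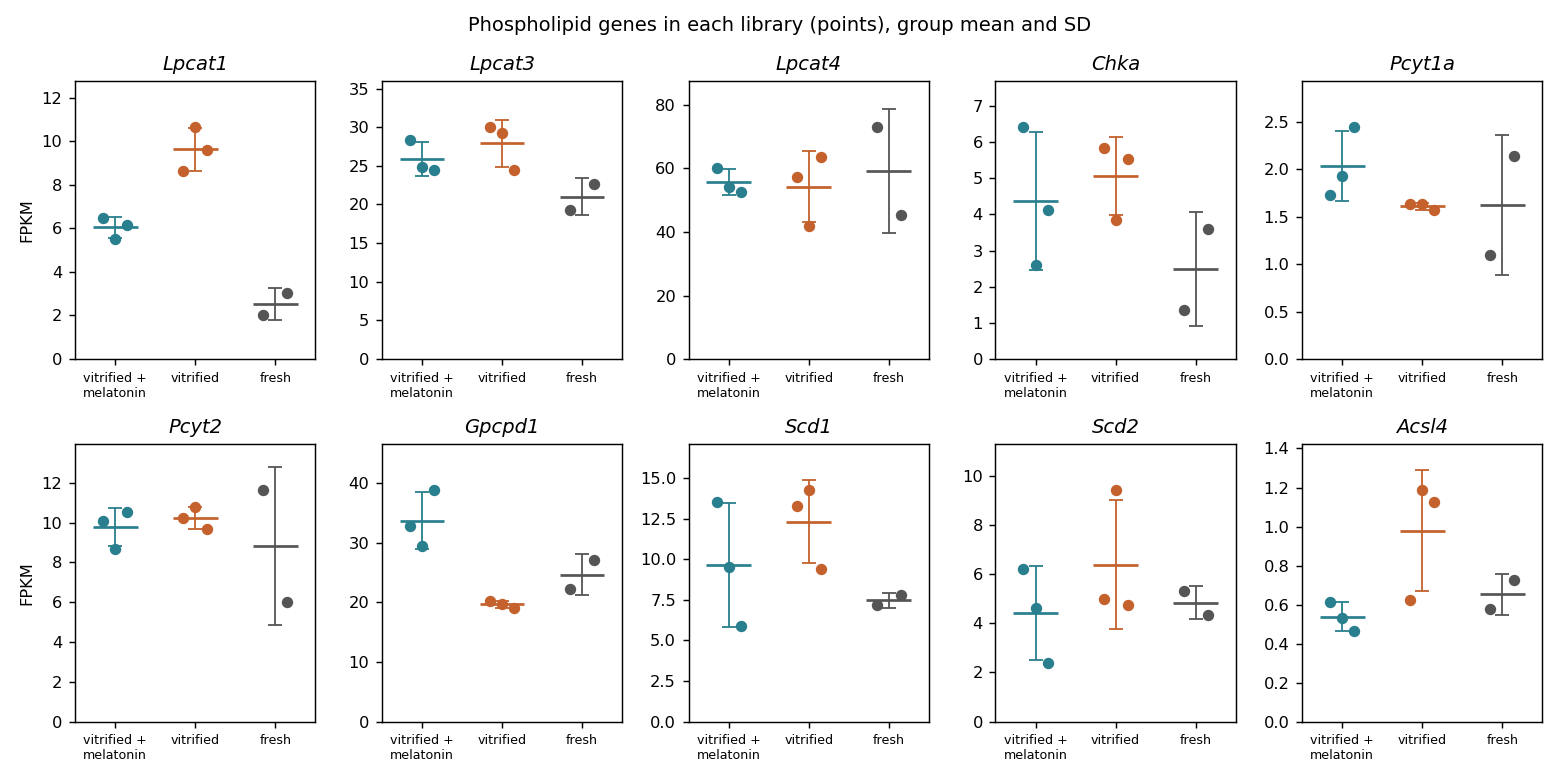
FPKM (vertical axes, a scale for each gene, all from 0) of the 10 phospholipid genes in melatonin (vitrified with melatonin), vitrified and fresh libraries; points are libraries, bars the mean and SD (n = 3, 3 and 2). Lpcat1 lies at 5.53 to 6.47, 8.64 to 10.6 and 2.01 to 3.04 FPKM in these groups with no overlap, while the groups of Lpcat4 overlap in all 3 comparisons.

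Lpcat4 was the most abundant of the 10 genes in all 8 libraries and Acsl4 the least, by FPKM, which is scaled for length. Lpcat3 and Gpcpd1 took the next places, with Gpcpd1 ahead in all melatonin and fresh libraries and Lpcat3 ahead in all vitrified libraries. Lpcat1 ranked 5 or 6 in melatonin and vitrified libraries and 7 and 8 in fresh libraries. Chka, Scd2 and Pcyt1a held places 6 to 9.

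Lpcat1, Lpcat3 and Lpcat4 are the acyltransferases of the set. The 300 bases around the annotated start of each (250 before it and 50 after) are shown because these enzymes of the same step differed in pattern, together with the first of 3 annotated windows of Pcyt1a, picked because it alone of the matched genes held the sterol element. The sequences are RefSeq's for GRCm38.p6, each on the + strand and written from its 5′ end: Lpcat1 at chr13:73466981-73467280, Lpcat3 at chr6:124662854-124663153, Lpcat4 at chr2:112239591-112239890 and Pcyt1a at chr16:32430671-32430970. Capitals mark matches, on either strand, to any of 5 motifs: the GC box (GGGCGG), the CCAAT box (CCAAT), the E-box (CACGTG), a sterol element (TCACNCCAC) and the direct repeat bound by LXR (AGGTCA, repeated after 4 bases).
Lpcat1: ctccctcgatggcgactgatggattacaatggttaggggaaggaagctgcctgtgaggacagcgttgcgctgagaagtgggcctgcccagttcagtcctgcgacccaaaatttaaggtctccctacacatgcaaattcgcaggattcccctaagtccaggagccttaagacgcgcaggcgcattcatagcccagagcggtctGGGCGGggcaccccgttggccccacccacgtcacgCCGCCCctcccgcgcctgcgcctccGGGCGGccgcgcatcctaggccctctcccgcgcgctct
Lpcat3: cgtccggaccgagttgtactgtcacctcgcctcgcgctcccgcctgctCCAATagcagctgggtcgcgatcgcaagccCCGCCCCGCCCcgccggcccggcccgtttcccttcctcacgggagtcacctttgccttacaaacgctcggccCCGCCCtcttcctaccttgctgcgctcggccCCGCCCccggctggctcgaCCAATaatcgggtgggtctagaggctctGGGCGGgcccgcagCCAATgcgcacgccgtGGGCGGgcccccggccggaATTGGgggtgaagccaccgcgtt
Lpcat4: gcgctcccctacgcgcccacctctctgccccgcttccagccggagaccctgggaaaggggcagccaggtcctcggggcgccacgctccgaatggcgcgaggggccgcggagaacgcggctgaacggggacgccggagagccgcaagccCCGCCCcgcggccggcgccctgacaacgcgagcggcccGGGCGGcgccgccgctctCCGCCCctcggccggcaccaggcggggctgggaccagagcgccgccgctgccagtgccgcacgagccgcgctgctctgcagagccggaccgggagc
Pcyt1a: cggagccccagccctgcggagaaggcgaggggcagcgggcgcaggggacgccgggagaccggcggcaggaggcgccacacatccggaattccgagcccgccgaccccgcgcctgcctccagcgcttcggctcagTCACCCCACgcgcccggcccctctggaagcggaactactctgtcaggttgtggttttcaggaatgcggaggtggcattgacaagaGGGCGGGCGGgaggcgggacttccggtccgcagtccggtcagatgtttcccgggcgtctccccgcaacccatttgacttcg

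The Lpcat1 window held 3 GC boxes, that of Lpcat3 held 6 GC boxes, which partly overlap, and 4 CCAAT boxes, and that of Lpcat4 held 3 GC boxes. The Pcyt1a window held 2 overlapping GC boxes and 1 sterol element, also held by the window that overlaps it, while the remaining Pcyt1a window held none of the 5 motifs. No E-box or LXR repeat was matched in these 4 windows. Of 32851 promoter windows of the same length, 35.7% held a GC box, 37.4% a CCAAT box, 7.15% an E-box, 1.24% the sterol element and 0.0152% the LXR repeat, each on either strand. GC content was 64% in the Lpcat1 window, 71% for Lpcat3, 79% for Lpcat4 and 69.7% for Pcyt1a, against a median of 52.7% over all windows. Of the 10 genes, 6 had a window in the table used, these 4 along with Chka and Acsl4. Windows follow RefSeq starts, whereas the gene coordinates given below follow the GENCODE annotation, and the 2 can differ. The Lpcat4 window lies wholly after the GENCODE start of that gene, at 112239468. A match is a string of letters and was not tested as a binding site.

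Lpcat1 (ENSMUSG00000021608, chromosome 13, 73467197 to 73516422, + strand, GRCm38) adds an acyl chain to lysophosphatidylcholine and is known in lung for making the saturated phosphatidylcholine of surfactant. Its level was 6.47, 5.53 and 6.14 FPKM in melatonin libraries, 8.64, 10.6 and 9.59 FPKM in vitrified libraries, and 2.01 and 3.04 FPKM in fresh libraries. Every vitrified library was above every melatonin library, and every melatonin library above both fresh libraries. Group means were 6.05 ± 0.477 FPKM with melatonin (SD, n = 3), 9.63 ± 0.997 FPKM after vitrification (SD, n = 3) and 2.52 ± 0.734 FPKM in fresh blastocysts (SD, n = 2).

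The difference between vitrified and fresh libraries was 1.60 ± 0.206 on the scale of log2(FPKM + 1) (estimate ± SE, limma adjusted p = 0.0324). Among the 10755 tested genes it lay at percentile 99.2, and it was 1.47 above the median difference of all tested genes. Melatonin libraries were below vitrified libraries by a difference of -0.59 ± 0.184 (limma adjusted p = 0.218), at 0.628 times their mean, and above fresh libraries by 1.01 ± 0.206 (limma adjusted p = 0.116), at 2.39 times their mean. Neither of these passed. The longest annotated transcript and the library sizes put Lpcat1 at an estimated 65.0 to 289 fragments per library, so counting error was largest in the fresh libraries.

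Single markers of the inner cell mass and of trophectoderm, picked after their values were seen, also differed between the groups. The epiblast factor Nanog was at 37.0, 46.8 and 54.6 FPKM in melatonin libraries, 28.3, 31.9 and 33.3 FPKM in vitrified libraries, and 3.49 and 9.80 FPKM in fresh libraries. Tdgf1 averaged 59.7 ± 4.46 FPKM in melatonin, 58.7 ± 9.41 in vitrified and 14.2 ± 15.2 in fresh libraries, and Pou5f1 averaged 26.3 ± 1.44 FPKM in melatonin, 43.9 ± 6.04 in vitrified and 21.8 ± 12.0 in fresh libraries. The primitive endoderm factor Gata6 averaged 20.8 ± 4.65 FPKM in melatonin, 33.9 ± 0.901 in vitrified and 16.4 ± 9.14 in fresh libraries, whereas Zfp42 averaged 238 ± 18.8 FPKM in melatonin, 184 ± 11.6 in vitrified and 230 ± 20.5 in fresh libraries. The trophectoderm factor Gata3 averaged 110 ± 5.06 FPKM in melatonin, 141 ± 26.5 in vitrified and 72.7 ± 7.72 in fresh libraries. In vitrified libraries the trophectoderm markers Cdx2, Eomes and Tead4 had lower means than in fresh libraries. So did Foxa2, Col4a1 and Lama1 of primitive endoderm, while the other markers of both lists had higher means. The part of cell type proportions in the Lpcat1 difference was not tested.

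Without fresh replicate 1, whose mitochondrial share stood apart, the vitrified minus fresh difference of Lpcat1 was 1.39 with an adjusted p of 0.07 by limma; here and wherever 1 fresh library is left out, the remaining one is assumed to vary like the other groups. In the 6 libraries with Y-linked transcripts it was 1.47 with an adjusted p of 0.233, the single vitrified library left being assumed to vary like the other groups. The difference stayed between 1.39 and 1.91 in all 19 other settings tried, and the call held in 8 of them, 1 of which only raised the threshold to 0.1, and was lost in 11. Of the 8 fits that left out 1 library each, it held without fresh replicate 2, melatonin replicate 1 or melatonin replicate 2, and was lost without any other library, the highest adjusted p being 0.116 without vitrified replicate 3.

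**Figure D2:**
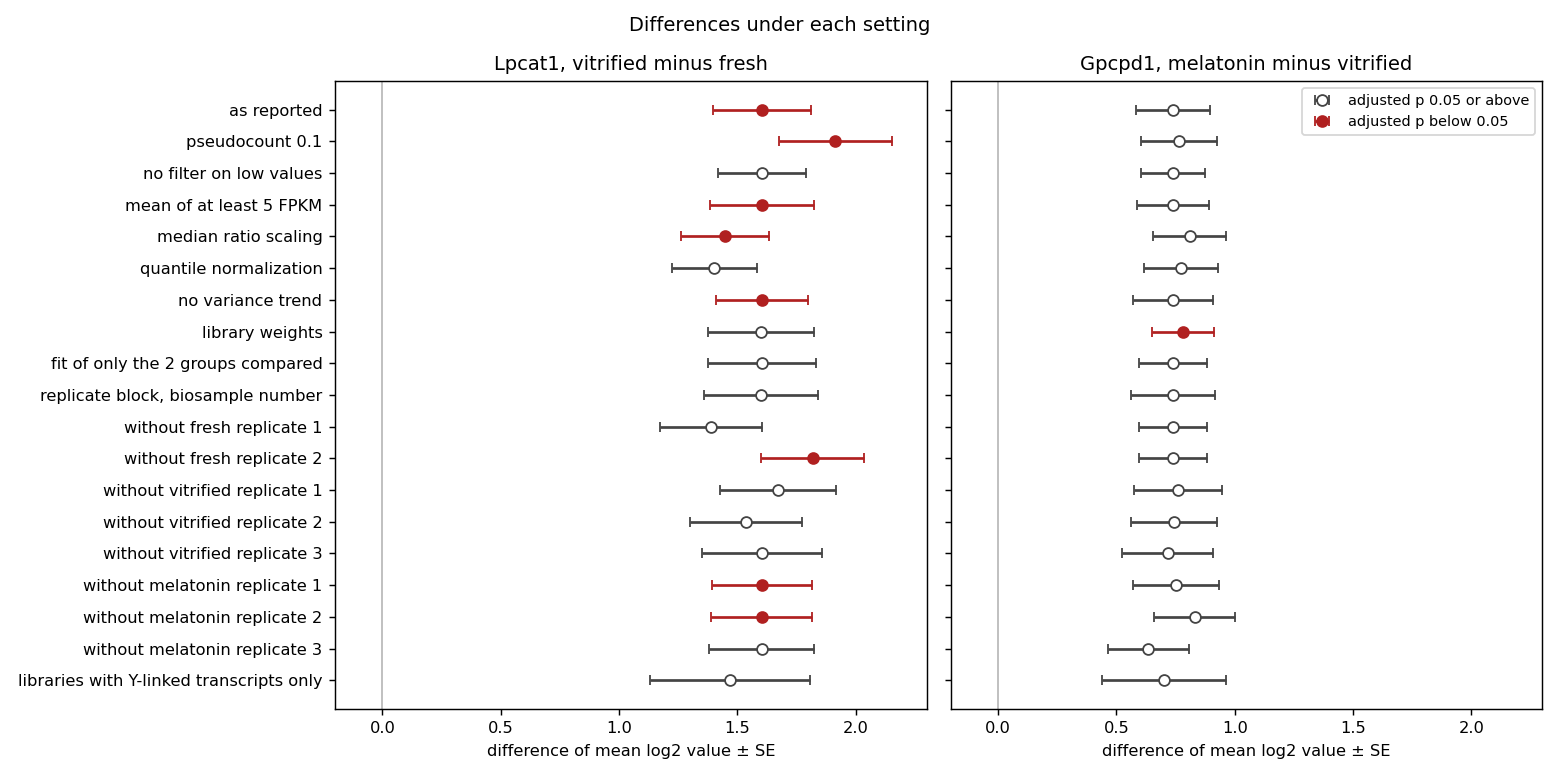
Difference of mean log2 values (horizontal axes, estimate ± SE) of Lpcat1, vitrified minus fresh, and Gpcpd1, melatonin minus vitrified, as reported and under the other settings, apart from the looser threshold; filled red points have a limma adjusted p below 0.05. Lpcat1 stays between 1.39 and 1.91 with red and open points, and Gpcpd1 stays between 0.64 and 0.83 with 1 red point, at 0.78 with library weights.

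Lpcat3 (ENSMUSG00000004270, chromosome 6, 124663027 to 124704418, + strand) puts polyunsaturated chains into phosphatidylcholine and is a known target of the sterol-sensing receptor LXR in liver and gut. It stood at 28.4, 24.8 and 24.4 FPKM in melatonin libraries, 30.0, 29.3 and 24.5 FPKM in vitrified libraries, and 19.3 and 22.7 FPKM in fresh libraries. Both fresh libraries were below every vitrified and every melatonin library, and the melatonin and vitrified libraries overlapped. The differences were 0.39 ± 0.169 for vitrified minus fresh (limma adjusted p = 0.232), -0.10 ± 0.151 for melatonin minus vitrified (adjusted p = 0.782) and 0.29 ± 0.169 for melatonin minus fresh (adjusted p = 0.381). Of the 100-base stretches of its transcripts, 6.63% also occur in Emg1, so reads there could be assigned to either gene.

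Lpcat4 (ENSMUSG00000027134, chromosome 2, 112239468 to 112247111, + strand), an acyltransferase that acts on lysophosphatidylethanolamine and lysophosphatidylcholine, was at 60.2, 54.2 and 52.6 FPKM in melatonin libraries, 57.3, 42.0 and 63.7 FPKM in vitrified libraries, and 72.9 and 45.3 FPKM in fresh libraries. The groups overlapped in every comparison, and the 2 fresh libraries were farther apart than the 3 melatonin libraries. Vitrified minus fresh was -0.10 ± 0.236 (limma adjusted p = 0.843), melatonin minus vitrified 0.05 ± 0.211 (adjusted p = 0.925) and melatonin minus fresh -0.05 ± 0.236 (adjusted p = 0.932). Each of these signs turned in at least 1 other setting.

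The mix of the 3 acyltransferases was also compared within each library, where the scaling between libraries cancels. Lpcat1 made up 6.81%, 6.54% and 7.38% of their summed FPKM in melatonin libraries, 9.01%, 13.0% and 9.82% in vitrified libraries, and 2.13% and 4.29% in fresh libraries. The 3 groups did not overlap. Lpcat2, which makes phosphatidylcholine and platelet-activating factor in inflammatory cells, did not exceed 0.408 FPKM in any library and was not tested.

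**Figure D3:**
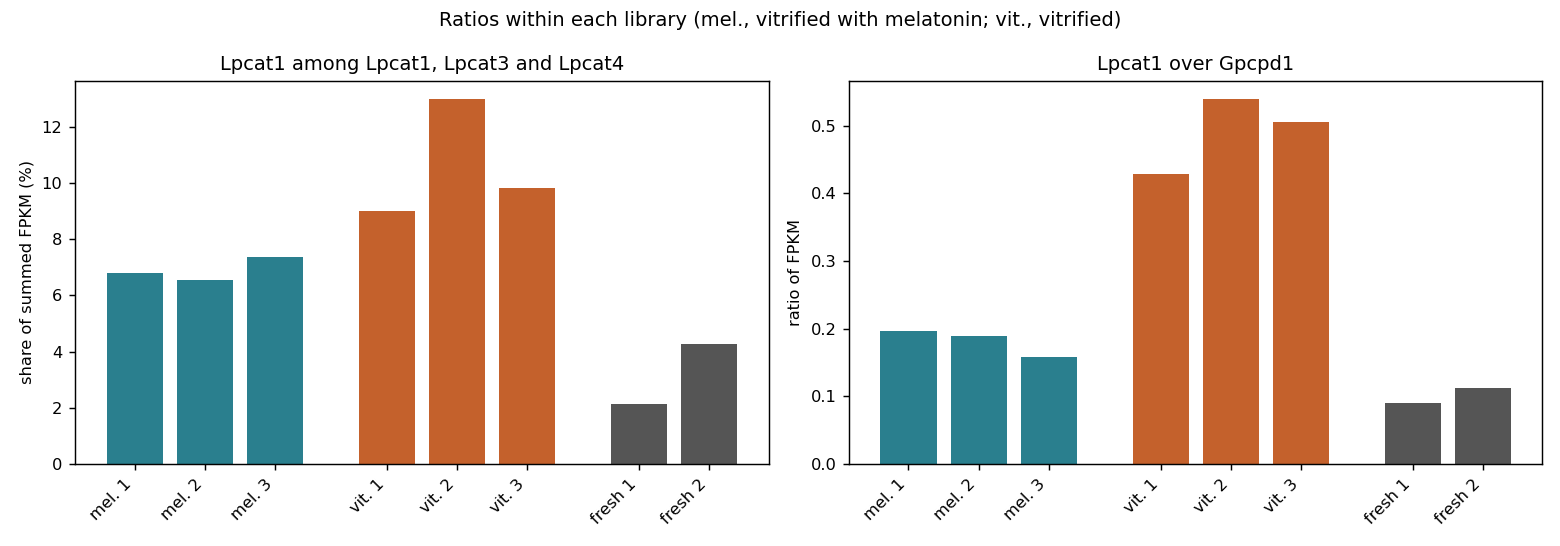
Share of Lpcat1 in the summed FPKM of Lpcat1, Lpcat3 and Lpcat4 (left, percent) and FPKM of Lpcat1 over that of Gpcpd1 (right, ratio) in each melatonin, vitrified and fresh library; a bar is 1 library. Both quantities, bars starting at 0, are highest in the 3 vitrified libraries (9.01% to 13.0% and 0.428 to 0.539) and lowest in the 2 fresh libraries (2.13% and 4.29%, 0.0903 and 0.112).

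Chka, Pcyt1a and Pcyt2 carry the early steps of the Kennedy pathway. Chka (ENSMUSG00000024843, chromosome 19, 3851773 to 3894369, + strand) encodes choline kinase alpha, which phosphorylates choline. It was at 6.40, 2.60 and 4.11 FPKM in melatonin libraries, 5.84, 3.83 and 5.53 FPKM in vitrified libraries, and 1.37 and 3.59 FPKM in fresh libraries. Vitrified libraries lay above fresh libraries without overlap, though vitrified replicate 2 and fresh replicate 2 were close, and melatonin libraries overlapped both groups. The difference was 0.86 ± 0.365 for vitrified minus fresh (limma adjusted p = 0.226), -0.22 ± 0.326 for melatonin minus vitrified (adjusted p = 0.782) and 0.64 ± 0.365 for melatonin minus fresh (adjusted p = 0.372). Without fresh replicate 1 the Chka difference was 0.39 for vitrified minus fresh and 0.16 for melatonin minus fresh, and without fresh replicate 2 it was 1.34 for vitrified minus fresh and 1.12 for melatonin minus fresh.

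Pcyt1a (ENSMUSG00000005615, chromosome 16, 32430921 to 32475070, + strand) encodes the enzyme that activates phosphocholine with CTP, the rate-limiting step of phosphatidylcholine synthesis. Its FPKM was 1.73, 1.93 and 2.44 in melatonin libraries, 1.63, 1.63 and 1.57 in vitrified libraries, and 1.10 and 2.14 in fresh libraries. The melatonin libraries were above the vitrified libraries without overlap, and the fresh pair enclosed all vitrified values. Melatonin minus vitrified was 0.21 ± 0.214 (limma adjusted p = 0.674) and melatonin minus fresh 0.23 ± 0.239 (adjusted p = 0.632). Vitrified minus fresh was 0.02 ± 0.239 (limma adjusted p = 0.971), and its sign turned to -0.089 under median ratio scaling and -0.21 under quantile normalization. Of its 100-base stretches, 6.38% are shared with Slc51a and 2210020O09Rik.

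Pcyt2 (ENSMUSG00000025137, chromosome 11, 120610087 to 120617936, - strand), its counterpart in the ethanolamine branch, was at 10.1, 8.69 and 10.5 FPKM in melatonin libraries, 10.2, 10.8 and 9.70 FPKM in vitrified libraries, and 11.6 and 6.03 FPKM in fresh libraries. The fresh pair enclosed all other libraries, so the groups overlapped throughout. The differences were 0.25 ± 0.246 for vitrified minus fresh (limma adjusted p = 0.601), -0.06 ± 0.220 for melatonin minus vitrified (adjusted p = 0.914, turning to 0.0029 under median ratio scaling) and 0.19 ± 0.246 for melatonin minus fresh (adjusted p = 0.722). Pcyt2 exceeded Pcyt1a 4.31 to 5.82 times in melatonin libraries, 6.19 to 6.60 times in vitrified libraries, and 10.6 and 2.82 times in fresh libraries.

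Gpcpd1 (ENSMUSG00000027346, chromosome 2, 132529082 to 132587729, - strand) splits glycerophosphocholine, the end product of phosphatidylcholine breakdown, and so returns choline for reuse. It stood at 32.8, 29.4 and 38.8 FPKM in melatonin libraries, 20.2, 19.7 and 19.0 FPKM in vitrified libraries, and 22.2 and 27.1 FPKM in fresh libraries. The melatonin libraries were the highest and the vitrified libraries the lowest, and the 3 groups did not overlap. Means were 33.7 ± 4.77 FPKM with melatonin (SD, n = 3), 19.6 ± 0.600 FPKM after vitrification (SD, n = 3) and 24.6 ± 3.42 FPKM in fresh blastocysts (SD, n = 2).

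Melatonin minus vitrified was 0.74 ± 0.155 for Gpcpd1 (limma adjusted p = 0.109), a ratio of means of 1.71 and percentile 98.4 among the tested genes. It did not pass as reported, and passed in 1 other setting, with library weights, at 0.78 (adjusted p = 0.0231). Melatonin minus fresh was 0.43 ± 0.174 (limma adjusted p = 0.234), and vitrified minus fresh -0.31 ± 0.174 (adjusted p = 0.351). The comparisons of melatonin with vitrified and of vitrified with fresh share the vitrified libraries, so their opposite signs for Lpcat1 and Gpcpd1 are not independent of each other.

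Within each library, the ratio of Lpcat1 to Gpcpd1 was 0.197, 0.188 and 0.158 in melatonin libraries, 0.428, 0.539 and 0.505 in vitrified libraries, and 0.0903 and 0.112 in fresh libraries. The groups did not overlap, and melatonin libraries lay nearer to the fresh than to the vitrified libraries. Gpcpd1, the denominator, averaged 33.7 FPKM with melatonin against 24.6 FPKM in fresh libraries, which lowers the ratio. For Lpcat1 alone the difference of log2(FPKM + 1) was -0.59 for melatonin minus vitrified and 1.01 for melatonin minus fresh. The ratio of Gpcpd1 to Chka was 5.13, 11.3 and 9.44 in melatonin libraries, 3.46, 5.15 and 3.44 in vitrified libraries, and 16.2 and 7.53 in fresh libraries. Fresh and vitrified libraries did not overlap in it, and melatonin replicate 1 fell within the vitrified range. These ratios and the share of Lpcat1 were picked after the values were seen and were not tested.

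Scd1, Scd2 and Acsl4 supply acyl chains. Scd1 (ENSMUSG00000037071, chromosome 19, 44394455 to 44407879, - strand) and Scd2 (ENSMUSG00000025203, chromosome 19, 44293674 to 44306864, + strand) are neighbouring genes of stearoyl-CoA desaturases, which turn saturated chains into monounsaturated ones such as oleate. Scd1 was at 13.5, 9.50 and 5.91 FPKM in melatonin libraries, 13.3, 14.3 and 9.42 FPKM in vitrified libraries, and 7.16 and 7.79 FPKM in fresh libraries. Its vitrified libraries were above both fresh libraries, and its melatonin libraries spanned values below the fresh pair and within the vitrified range. The Scd1 difference was 0.63 ± 0.303 for vitrified minus fresh (limma adjusted p = 0.276), -0.37 ± 0.271 for melatonin minus vitrified (adjusted p = 0.549) and 0.27 ± 0.303 for melatonin minus fresh (adjusted p = 0.670).

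Scd2 had 6.19, 4.62 and 2.39 FPKM in melatonin libraries, 4.99, 9.41 and 4.76 FPKM in vitrified libraries, and 5.30 and 4.35 FPKM in fresh libraries. Its groups overlapped in every comparison, and vitrified replicate 2 was well above the rest. The differences were 0.29 ± 0.356 (vitrified minus fresh, limma adjusted p = 0.686), -0.46 ± 0.318 (melatonin minus vitrified, adjusted p = 0.520) and -0.17 ± 0.356 (melatonin minus fresh, adjusted p = 0.834). Scd1 exceeded Scd2 in every library, by 2.06 to 2.48 times with melatonin, 1.52 to 2.66 times after vitrification, and 1.35 and 1.79 times in fresh blastocysts. The genes share 100-base stretches with each other and with Scd3, 2.58% of those of Scd1 and 0.879% of those of Scd2, and reads there are uncertain.

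Acsl4 (ENSMUSG00000031278, chromosome X, 142317993 to 142390535, - strand) activates arachidonic acid for entry into phospholipids and is known for its part in ferroptosis, a death by lipid peroxidation. It was the lowest of the set, with 0.614, 0.533 and 0.466 FPKM in melatonin libraries, 0.624, 1.19 and 1.13 FPKM in vitrified libraries, and 0.580 and 0.727 FPKM in fresh libraries. It reached 1 FPKM in vitrified replicates 2 and 3 alone and entered the test through them, at an estimated 16.5 to 48.8 fragments per library. These are the 2 libraries without Y-linked transcripts and with high Xist, and Acsl4 is X-linked; the part of embryo sex in its values was not tested. In vitrified replicate 1, which has Y-linked transcripts, Acsl4 lay within the fresh range. The differences were 0.25 ± 0.226 for vitrified minus fresh, turning to -0.038 under quantile normalization, and -0.35 ± 0.202 for melatonin minus vitrified. No p-value of these is given, since Acsl4 entered the test only through the group where it was high. Melatonin minus fresh was -0.10 ± 0.226 (limma adjusted p = 0.843).

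Between vitrified and fresh libraries, 1 of the 10 genes passed at an adjusted p below 0.05, Lpcat1, which rose; 0.865% of the 10755 tested genes passed, 0.762% higher and 0.102% lower. At an unadjusted p below 0.05 stood 3 of the 10 (Lpcat1, Lpcat3 and Chka), against 20.2% of all tested genes. All 10 genes were tested, Acsl4 only through the vitrified group. The median difference of the 10 was 0.27, against 0.14 for all tested genes. Median ratio scaling brought the median of all tested genes to -0.01. Relative to the 0.14 without that scaling, 7 of the 10 lay above and 3 below. Without overlap between the groups, 4 were higher after vitrification (Lpcat1, Lpcat3, Chka and Scd1) and Gpcpd1 was lower, where 26.4% of all tested genes were so separated upward and 10.6% downward.

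Between melatonin and vitrified libraries none of the 10 genes passed by limma, against 0.139% of all tested genes (0.0279% higher and 0.112% lower). At an unadjusted p below 0.05 stood Lpcat1 and Gpcpd1, against 14.8% of all tested genes. The median difference was -0.16, against -0.05 for all tested genes. Gpcpd1 and Pcyt1a were higher and Lpcat1 and Acsl4 lower without overlap, where 9.3% of all tested genes were separated upward and 15.4% downward. Acsl4 had entered the test only through the vitrified group, where it was higher.

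Between melatonin and fresh libraries none passed either by limma, against 0.0% of all tested genes, and 2 had an unadjusted p below 0.05 (Lpcat1 and Gpcpd1), against 18.5% of all. The median difference of the 10 genes was 0.25, against 0.09 for all tested genes. Lpcat1, Lpcat3 and Gpcpd1 were higher without overlap and no gene of the set was lower, where 20.8% of all tested genes were separated upward and 13.5% downward.

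**Figure D4:**
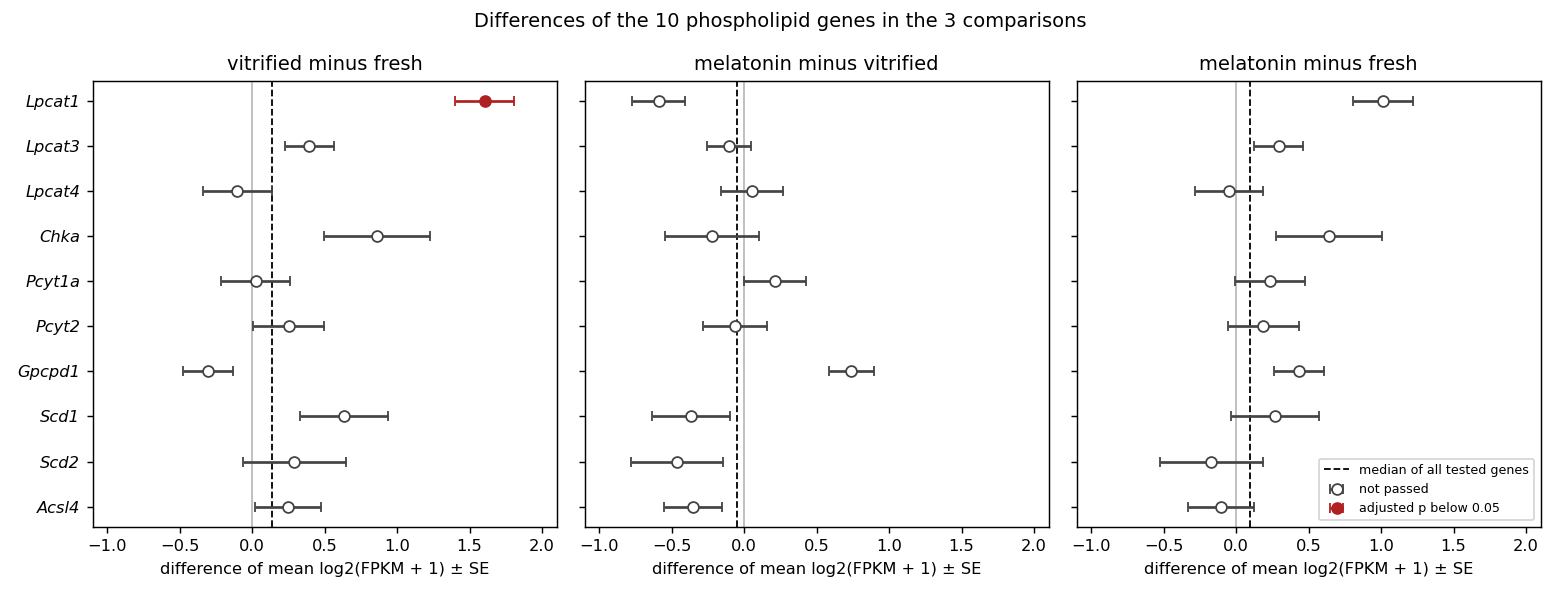
Difference of mean log2(FPKM + 1) (horizontal axes, estimate ± SE from limma) of the 10 phospholipid genes for vitrified minus fresh, melatonin minus vitrified and melatonin minus fresh; the dashed line is the median of all 10755 tested genes and the red point passed. Lpcat1 stands at 1.60 in vitrified minus fresh, far to the right of the dashed line at 0.14, and Gpcpd1 at 0.74 in melatonin minus vitrified.

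The rest of the phospholipid network was read from 10 lists of 101 genes drawn up by enzyme function, of which 96 were in the table and 74 were tested. Between vitrified and fresh libraries 1 of the 74 passed, Elovl7, which rose, where 0.865% of all tested genes passed, and 73 did not. An unadjusted p below 0.05 was reached by 22 of the 74, against 20.2% of all tested genes, and the median difference was 0.20, against 0.14 for all. Both the 22 and the median include Pcyt1b, Lpin1 and Gpam. These reached 1 FPKM in vitrified libraries alone and entered the test only through the group where they were high. Atp8b1, also among the 22, and Mboat1 reached 1 FPKM in melatonin and vitrified libraries but not in fresh libraries. Both entered the test through the groups where they were higher, and are in the medians of their lists. Between melatonin and vitrified libraries none of the 74 passed by limma (12 had an unadjusted p below 0.05, against 14.8% of all tested genes) and the median was -0.02, against -0.05 for all. Pcyt1b, Lpin1 and Gpam are in this median too. Between melatonin and fresh libraries none of the 74 passed by limma (12 had an unadjusted p below 0.05, against 18.5% of all tested genes) and the median was 0.25, against 0.09 for all. Atp8b1 is among these 12, and both Atp8b1 and Mboat1 are in this median.

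Elovl7, which elongates saturated fatty acids, was at 10.6, 9.64 and 10.0 FPKM in melatonin libraries, 14.8, 14.5 and 11.1 FPKM in vitrified libraries, and 3.46 and 5.95 FPKM in fresh libraries. As with Lpcat1, the 3 groups did not overlap and the vitrified libraries were highest. Vitrified minus fresh was 1.37 ± 0.229 (limma adjusted p = 0.0394), melatonin minus vitrified -0.38 ± 0.205 (adjusted p = 0.417) and melatonin minus fresh 0.99 ± 0.229 (adjusted p = 0.134). The vitrified minus fresh difference stayed between 1.05 and 1.69 in the 19 other settings, in 14 of which the call was lost, with the adjusted p reaching 0.232. Of the fits without 1 library, the call held only without fresh replicate 2 (1.69, limma adjusted p = 0.0127), and without fresh replicate 1 the difference was 1.05 (limma adjusted p = 0.0937), each with a single fresh library whose spread is taken from the other groups.

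In the choline branch none of the 7 tested genes passed, with a median difference of 0.22 between vitrified and fresh libraries. Its most abundant gene, the choline transporter Slc44a1, averaged 33.2 ± 2.54 FPKM in melatonin, 40.8 ± 2.45 in vitrified and 26.8 ± 0.523 in fresh libraries, with a limma adjusted p of 0.0745 for vitrified against fresh. Pcyt1b, which like Pcyt1a encodes an enzyme that activates phosphocholine, named here after its values were seen, was at 0.551, 0.821 and 0.734 FPKM in melatonin libraries, 1.40, 1.64 and 1.13 FPKM in vitrified libraries, and 0.0358 and 0.523 FPKM in fresh libraries. It reached 1 FPKM in the vitrified libraries alone and so entered the test only through the group where it was high. No test of it alone is given, though it is among the 7 tested genes and in their median.

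In the ethanolamine and serine branch (5 tested, median 0.23 for vitrified minus fresh) the phosphatidylserine synthase Ptdss1 averaged 69.9 ± 11.0 FPKM in melatonin, 56.9 ± 9.40 in vitrified and 52.7 ± 17.5 in fresh libraries. Among genes of phosphatidic acid and diacylglycerol (11 tested, median 0.41) Agpat2, which makes phosphatidic acid, averaged 134 ± 14.5 FPKM in melatonin, 134 ± 5.81 in vitrified and 160 ± 6.04 in fresh libraries, more than any gene of the set in any library. Among inositol lipid and cardiolipin genes (8 tested, median -0.10) the phosphatidylinositol synthase Cdipt averaged 23.8 ± 0.758 FPKM in melatonin, 24.6 ± 2.26 in vitrified and 31.0 ± 4.75 in fresh libraries. None of these lists held a gene that passed, and Gpam and Lpin1 entered the test, and the median of 0.41, through vitrified libraries alone.

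Of the remaining lysophospholipid acyltransferases 3 were tested, with a median of 0.56 for vitrified minus fresh and none passing. Mboat2, the most abundant of them, averaged 10.5 ± 4.66 FPKM in melatonin, 12.9 ± 1.30 in vitrified and 6.11 ± 4.29 in fresh libraries (limma adjusted p = 0.167 for vitrified against fresh). Of 9 tested phospholipases and diesterases (median 0.20) none passed, and Gde1, a glycerophosphodiesterase like Gpcpd1, averaged 73.2 ± 5.54 FPKM in melatonin, 88.1 ± 5.80 in vitrified and 75.2 ± 10.6 in fresh libraries. Every vitrified library was above all others for Gde1, the lowest at 83.1 FPKM against 82.6 FPKM in fresh replicate 2. Of all tested genes, 26.4% were separated upward between vitrified and fresh libraries and 15.4% downward between melatonin and vitrified libraries. Gde1 did not pass (limma adjusted p = 0.429 for vitrified against fresh and 0.396 for melatonin against vitrified).

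Desaturases, elongases and acyl-CoA synthetases other than the set (9 tested) had a median of -0.13 for vitrified minus fresh, with Elovl7 alone passing. Ether lipid genes (5 tested, median 0.15), flippases and scramblases (10 tested, median 0.21) and regulators of SREBP and LXR (7 tested, median 0.17) held none that passed. Their most abundant genes were Gnpat, the first enzyme of ether lipid synthesis, at 17.0 ± 2.59 FPKM in melatonin, 13.6 ± 3.08 in vitrified and 16.8 ± 2.67 in fresh libraries, and the scramblase Ano6, at 14.7 ± 2.21 FPKM in melatonin, 10.1 ± 0.818 in vitrified and 11.1 ± 0.459 in fresh libraries. Insig1, which holds the SREBP factors of lipid synthesis in the endoplasmic reticulum, averaged 19.4 ± 2.08 FPKM in melatonin, 23.0 ± 4.94 in vitrified and 23.6 ± 18.2 in fresh libraries, the fresh pair being at 36.5 and 10.8 FPKM.

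**Figure D5:**
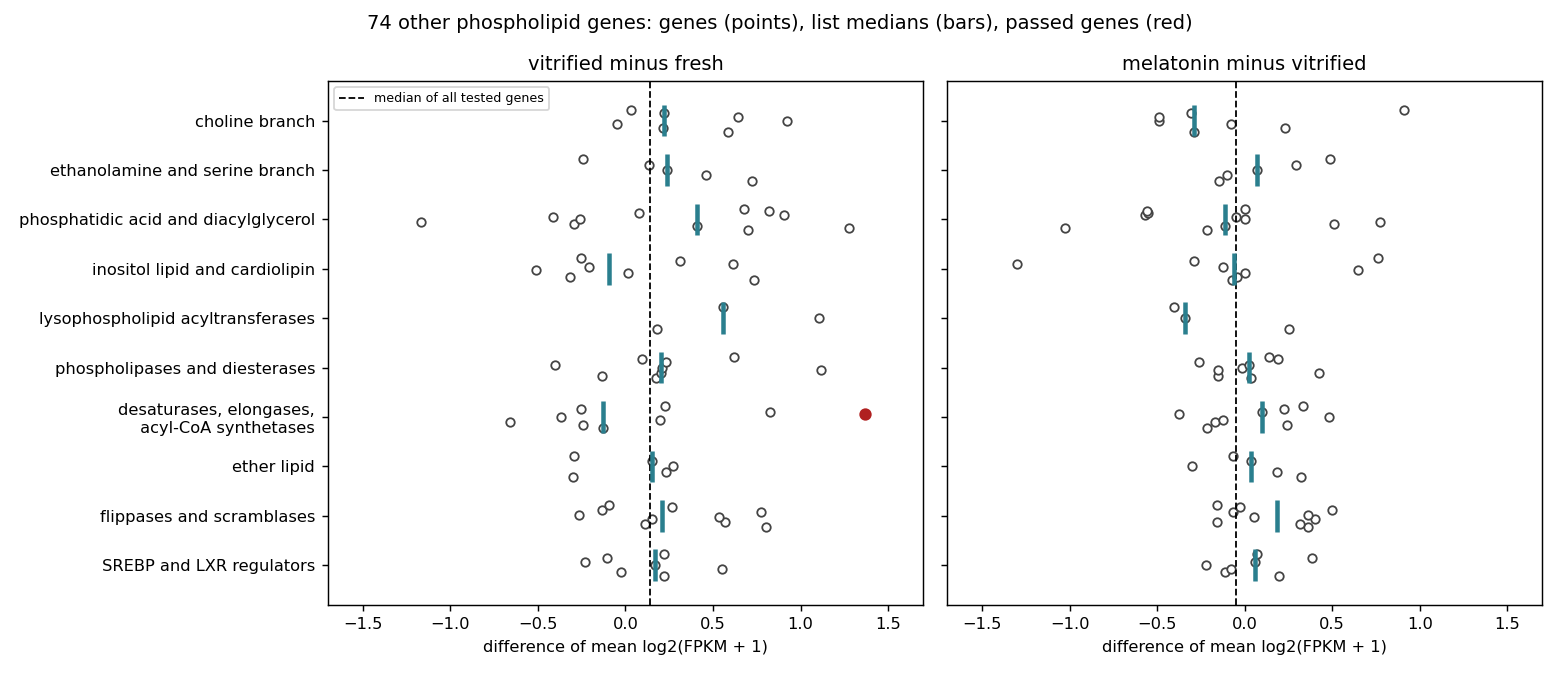
Difference of mean log2(FPKM + 1) (horizontal axes) of 74 other phospholipid genes in 10 lists for vitrified minus fresh and melatonin minus vitrified; circles are genes, bars the median of a list, the dashed line the median of all tested genes. Elovl7, at 1.37 in vitrified minus fresh, is the single red point, and list medians lie between -0.13 and 0.56 in that panel.

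Over the 8 libraries, genes whose log2(FPKM + 1) ran most like that of Lpcat1 included Faiml (Pearson r = 0.973) and Zwilch (r = 0.966), out of 5720 genes with a mean of at least 5 FPKM. Zwilch, which encodes a kinetochore protein, was at 9.04, 8.08 and 8.69 FPKM in melatonin libraries, 12.8, 13.3 and 11.4 FPKM in vitrified libraries, and 4.69 and 7.14 FPKM in fresh libraries. The likeness is a description over libraries that share groups and depth, and carries no test.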

How the data were processed

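The authors deposited 1 table of FPKM per gene and library, on mm10 per the submitters' processing notes. The sources used here name no aligner, counting tool or annotation and do not say how strand or low values were treated. The design text names Smart-seq2, whereas the extract protocol describes bulk, strand-specific libraries from selected poly(A) RNA, which leaves the method unsettled. Replicate numbers follow the biosample descriptions. From the deposited values, coordinates were matched to GENCODE M21 for 19577 of 19688 genes. Library sizes were estimated from 4978 genes with 1 transcript, whose FPKM times length fell on whole steps (within 0.1) for 94.5% to 97.3% of low values; they do not give reads sequenced.

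Differences were tested with limma 3.58.1 under R 4.3.3, using a variance trend and a single model of the 8 libraries on log2(FPKM + 1), for genes with at least 1 FPKM in at least 2 libraries (10755 tested, 8933 not). Tests were two-sided, with Benjamini-Hochberg adjustment over all tested genes and calls below 0.05. Differences on this scale understate changes of low genes. The fit was also run on simulated libraries with known changes and independent noise. These lacked differences of scaling or embryo sex between libraries, so they cannot show whether the calls here hold. The members and lists were chosen with earlier results of these data known. Of each list, genes that passed are named, or else the gene of highest mean FPKM, and for Lpcat1 the 3 genes of highest Pearson r, 1 of which is not reported here. Alternatives were another pseudocount, other filters and scalings, no trend, library weights, fits of 2 groups, a replicate block, each library left out and an adjusted p below 0.1. Python 3.11.15 handled tables. Motifs were searched in RefSeq promoter windows.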

Additional observations from a re-analysis of the deposited data

How the results depend on the processing

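Of 552 values of the 10 genes recomputed in 19 settings, 518 kept their direction and side of the threshold, 21 turned sign, 11 lost the call (Lpcat1, vitrified against fresh) and 2 gained one. The gains were Gpcpd1, melatonin against vitrified, at 0.78 with library weights, and Lpcat1, melatonin against fresh, at 1.23 without fresh replicate 2 (limma adjusted p = 0.0263), against a single fresh library assumed to vary like the other groups. The cause of each was not tested.

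Signs that turned belonged to differences that had not passed. With median ratio scaling Pcyt1a, vitrified against fresh, went to -0.089 and Pcyt2, melatonin against vitrified, to 0.0029. With quantile normalization Pcyt1a and Acsl4, vitrified against fresh, went to -0.21 and -0.038. With library weights Lpcat4 went to 0.014 for vitrified against fresh and -0.078 for melatonin against vitrified, and in libraries with Y-linked transcripts it was -0.042 for melatonin against vitrified. With 1 library left out, differences that turned spanned, for vitrified against fresh, -0.27 to 0.31 (Pcyt1a), -0.17 to 0.67 (Pcyt2) and -0.44 to 0.24 (Lpcat4). For melatonin against vitrified they spanned -0.12 to 0.18 (Lpcat4), -0.12 to 0.0091 (Pcyt2) and -0.48 to 0.036 (Chka). For melatonin against fresh they spanned -0.39 to 0.29 (Lpcat4), -0.057 to 0.52 (Pcyt1a), -0.24 to 0.61 (Pcyt2) and -0.41 to 0.13 (Scd2).

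The number of all genes called between vitrified and fresh libraries, 93 as reported, was 1 with no filter, 7 with median ratio scaling, 3 with quantile normalization, 1 with library weights, 11 in the fit of 2 groups, 6 in libraries with Y-linked transcripts (a setting chosen after seeing the data), 686 at an adjusted p below 0.1 and 2 (vitrified replicate 3) to 433 (fresh replicate 2) with 1 library left out. Between melatonin and vitrified libraries, 15 as reported became 6 with a pseudocount of 0.1, 8 with quantile normalization, 233 with library weights, 68 in the fit of 2 groups, 5 in libraries with Y-linked transcripts, 45 at an adjusted p below 0.1 and 1 (melatonin replicate 3) to 68 (fresh replicate 2) with 1 library left out. Between melatonin and fresh libraries, 0 by limma (1985 at an unadjusted p below 0.05) became 5 with a pseudocount of 0.1, 2 in the fit of 2 groups, 2 in libraries with Y-linked transcripts and 0 to 565 (fresh replicate 2) with 1 library left out. Of the 10 genes, the 1 called between vitrified and fresh libraries became 0 with no filter, quantile normalization, library weights, the fit of 2 groups and libraries with Y-linked transcripts, and 0 to 1 with 1 library left out; between melatonin and vitrified libraries 1 was called with library weights, and between melatonin and fresh libraries 0 to 1 with 1 library left out. Of the 74 other phospholipid genes, 0 were called between vitrified and fresh libraries with no filter, either scaling, library weights, the fit of 2 groups or libraries with Y-linked transcripts, 7 at an adjusted p below 0.1 and 0 to 5 with 1 library left out. Between melatonin and vitrified libraries 1 was called with library weights, 1 in the fit of 2 groups and 0 to 1 with 1 library left out, and between melatonin and fresh libraries 0 to 5 with 1 library left out.

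With biosample numbers as a replicate block, 1 gene of all was called between vitrified and fresh libraries and 1 between melatonin and vitrified libraries, 0 of the 10 genes and 0 of the 74. Lpcat1 was then at 1.60 for vitrified against fresh (limma adjusted p = 0.116), Pcyt1a turned to -0.017 there, and Scd2 to 0.054 for melatonin against fresh. Same-numbered libraries deviated from their group means with correlations of -0.115 to 0.121, and not every library correlated best with its own number. Correlations this weak cannot settle whether the numbers pair the libraries. The deviations of the fresh pair mirror each other, so their correlations with any other library are equal with opposite sign. Numbers in the sample titles partly differ from the biosample numbers and were not fitted as a block.

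The fresh group has 2 libraries, and the estimates rest on them: leaving out 1 of them moved the vitrified minus fresh difference of Lpcat1 to 1.39 or 1.82. The lowest estimated fragments in a library were 16.5 for Acsl4, 52.5 for Pcyt1a, 63.6 for Chka, 65.0 for Lpcat1 and 65.9 for Pcyt2. The differences of Acsl4 and Pcyt1a did not pass in any setting tried.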
